A study of Mus musculus with 2 samples.

Results

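Among mouse CD8 T cells cultured toward interleukin-17 production, 50 of 1727 cells carried Ifng transcript without Il17a or Il2. They were chosen by 3 measured values: Ifng at 10 or more, and Il17a and Il2 each under 10, unique molecular identifiers (UMIs) per 10000 UMIs of the cell. There were 23 such cells among 1018 in the library labelled wild type and 27 among 709 in the library labelled Nfatc1-deficient, and the libraries shared 0 cell barcodes. Without Il17a or Il2 means under that limit and not absent. Most of these cells still had a UMI of Il17a (20 of 23 and 25 of 27) and of Il2 (19 of 23 and 24 of 27). All other kept cells of the same library served as the comparison.

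Both libraries came from C57/B6N mice, and the study asked how the transcription factor NFATc1 bears on CD8 T cells that make IL-17. The control mice were wild type, and the others were Nfatc1f/f×Cd4-Cre, in which Cre driven by the Cd4 promoter was to delete floxed Nfatc1. Cells of both genotypes were CD8 T cells taken from mesenteric lymph nodes with affinity beads, cultured with the same Th17 cytokine and antibody kit, and stimulated with PMA at 100 ng/ml plus ionomycin at 10 μg/ml over 3 h. No unstimulated library was part of the comparison. The sources used here do not give the number or age of the mice behind each library.

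Interferon gamma is the signature cytokine of type 1 CD8 T cells, and it activates macrophages and raises antigen presentation. It is usually made together with the chemokines CCL3 and CCL4 and with granule proteins such as granzyme B. Tc17 cells make IL-17A and IL-17F instead and usually hold little granzyme. PMA with ionomycin replaces the signal of the T-cell receptor, and the calcium that ionomycin lets in activates NFAT proteins, which bind the core GGAAA in cytokine promoters.

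With 1 library per group there was no replicate check and no test. Cells are not replicates, and a class cut on Ifng, Il17a and Il2 cannot be tested on the same cells. Every value here describes these libraries. CPM (counts per 1e6) is a gene's UMIs scaled to a common total over a set of cells. Intervals are 95% and cover counting error only, so for CPM and fold values the spread from cell to cell is not in them. Because a sum over about 25 cells can rest on 1 of them, the number of cells holding a gene, or the level without its top cell, is given beside the main results.

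The transcript of the targeted gene ran against the genotype label, so the libraries are named by their labels throughout. Nfatc1 was at 54.9 CPM in the 23 wild-type-labelled cells, with a UMI in 9 of them. It was at 120 CPM in the 27 deficient-labelled cells, with a UMI in 23 of them, which is 2.19-fold higher (interval 1.39 to 3.55). The other kept cells showed the same order, 39.5 against 137 CPM. The sources used here do not say which exons are floxed, and a 3′ count outside a deleted part would not measure the deletion. Why the level was higher in the deficient-labelled library was not tested.

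The sort label held for these cells. All 6 CD8 T cell markers were present, with summed levels of 2228 and 2147 CPM, and Cd8b1 had a UMI in 23 of 23 and 26 of 27 cells. Cd4 was at 0 in both libraries, as were the natural killer cell genes Ncr1, Klrb1c, Tyrobp and Fcer1g and the gamma delta T cell genes Trdc and Tcrg-C1. Eomes, also on the natural killer cell list and known in memory CD8 T cells, was at 14.8 CPM in the wild-type-labelled cells (UMIs in 6) against 1.13 in the others, and at 1.48 against 1.05 CPM in the deficient-labelled library. Markers of B cells, myeloid cells, dendritic cells and stroma summed to at most 31.6 CPM. Of the markers given for the population, Ifng was held by choice. At 10 or more per 10000, Ccl4 was in 17 of 23 and 27 of 27 cells. By the same limit Ccl3 was in 6 of 23 and 24 of 27 cells, and Gzmb in 3 of 23 and 11 of 27.

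The upstream 250 bases of Ifng and of Ccl3 are shown because NFAT proteins are known to act at cytokine promoters and because these transcripts went together within the cells described below. Sequences are from RefSeq, build GRCm38.p6, 5′ to 3′ on the gene's strand, and capitals mark GGAAA or, read on the opposite strand, TTTCC.
Ifng, chr10:118440796-118441045, plus strand: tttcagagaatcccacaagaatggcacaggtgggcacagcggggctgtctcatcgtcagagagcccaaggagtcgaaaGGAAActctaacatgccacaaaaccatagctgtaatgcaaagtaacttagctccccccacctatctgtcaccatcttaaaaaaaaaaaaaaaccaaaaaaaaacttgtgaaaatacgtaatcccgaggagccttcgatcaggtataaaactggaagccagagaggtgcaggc
Ccl3, chr11:83649379-83649628, minus strand: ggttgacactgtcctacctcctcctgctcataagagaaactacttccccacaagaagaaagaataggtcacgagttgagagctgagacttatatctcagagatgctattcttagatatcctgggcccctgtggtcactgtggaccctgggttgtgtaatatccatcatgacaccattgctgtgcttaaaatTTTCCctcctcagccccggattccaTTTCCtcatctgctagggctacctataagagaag
The Ifng window held 1 match, and 55.6% of 32851 promoters of that length held at least as many. The Ccl3 window held 2 matches, both on the opposite strand, and 21.4% of promoters held at least as many. A match describes letters and not a bound site.

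Ifng cells of any kind were 9.04% of wild-type-labelled cells (92 of 1018, interval 7.35 to 10.97) and 42.7% of deficient-labelled cells (303 of 709, 39.1 to 46.5). Ifng cells with both Il17a and Il2 under 10 per 10000 differed far less in share of all kept cells. They were 2.26% (1.44 to 3.37) against 3.81% (2.52 to 5.49), and those intervals overlapped. As a part of the Ifng cells they stood in the opposite order, 25% (16.6 to 35.1) of wild-type-labelled and 8.91% (5.95 to 12.7) of deficient-labelled Ifng cells. Ifng cells with Il2, which lets T cells grow, and without Il17a were 25 of 92 (27.2%) against 238 of 303 (78.5%). Cells with both Ifng and Il17a, whatever their Il2, were 44 of 92 (47.8%) and 38 of 303 (12.5%).

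**Figure D1:**
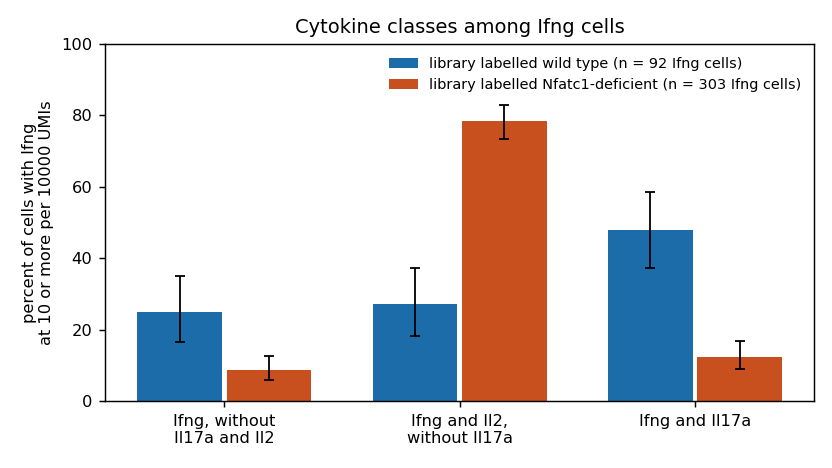
Bars give the percent of cells with Ifng at 10 or more per 10000 UMIs that fall in each of 3 classes, for the 92 wild-type-labelled and 303 deficient-labelled Ifng cells. Lines are exact binomial 95% intervals (counting error only). The class with Il2 and without Il17a is 27.2% and 78.5% of Ifng cells, and the class without Il17a and Il2 is 25% and 8.91%.

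Taking only Ifng cells without Il17a, Il2 was at 10 or more per 10000 in 25 of 48 (52.1%, 37.2 to 66.7) wild-type-labelled cells. The same held for 238 of 265 (89.8%, 85.5 to 93.2) deficient-labelled cells. With cells thinned to 5000 UMIs each, the share without Il17a and Il2 was 21 of 1004 (2.09%) and 28 of 698 (4.01%). Of the cells first chosen, 21 of 23 and 24 of 27 stayed in the class after thinning. The Il17a limit fell in a wide gap: the highest Il17a among the chosen cells was 4.56 and 4.52 per 10000, and the lowest outside, among Ifng cells without Il2, was 32.0 and 169. The Il2 limit did not. The highest Il2 among chosen cells was 8.96 and 8.40, the lowest just outside was 10.8 and 10.2, and 2 and 17 Ifng cells without Il17a held 10 to 20 per 10000. For Ifng the values just inside the limit were 11.5 and 10.3, and just outside 7.52 and 8.20.

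Depth differed between the libraries for these cells. The 23 wild-type-labelled cells had a median of 13445 UMIs (6902 to 65924), below the median of 20923 for the other cells of their library. For the 27 deficient-labelled cells the median was 25916 UMIs (8010 to 41544), against 21357 for the others. Summed, they held 473975 and 673451 UMIs, so 1 UMI was worth 2.11 and 1.48 CPM and a gene with no UMI could be as high as 6.33 and 4.45 CPM (the limit of 3 counts). Median mitochondrial shares were 2.80% and 2.45%, and 0 of these cells were called as doublets. How much of any difference between the libraries goes with this depth was not tested, apart from the thinned shares given here.

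Ifng itself (chr10:118441046-118445892, mm10) ranged widely among the cells it had chosen. Over the 23 wild-type-labelled cells it ran from 11.5 through a median of 33.9 to 491 per 10000. The 27 deficient-labelled cells ran from 10.3 through 78.9 to 581, so the ranges nearly coincided while the median was higher. Summed levels were 7996 against 1187 CPM in the other wild-type-labelled cells and 15184 against 7063 CPM in the other deficient-labelled cells, which follows from the choice.

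A size rule was used to count genes: 20 CPM or more on one side and a 2-fold or greater distance on log2 of CPM plus 1. Set against the other cells, 216 of 5702 genes (3.79%) were higher and 318 (5.58%) lower in the wild-type-labelled cells. In the deficient-labelled cells 80 of 5600 (1.43%) were higher and 197 (3.52%) lower. In both libraries alike, 20 of 5223 genes (0.383%) were higher and 51 (0.976%) lower. Ifng, Gzmb, Il10, Il24, Gadd45g, Tnfrsf9, Glrx and S100a4 were among those higher in both, and Il17a, Il2, Il17f, Inhba, Il1r2, Rora and Tmem176a among those lower in both.

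**Figure D2:**
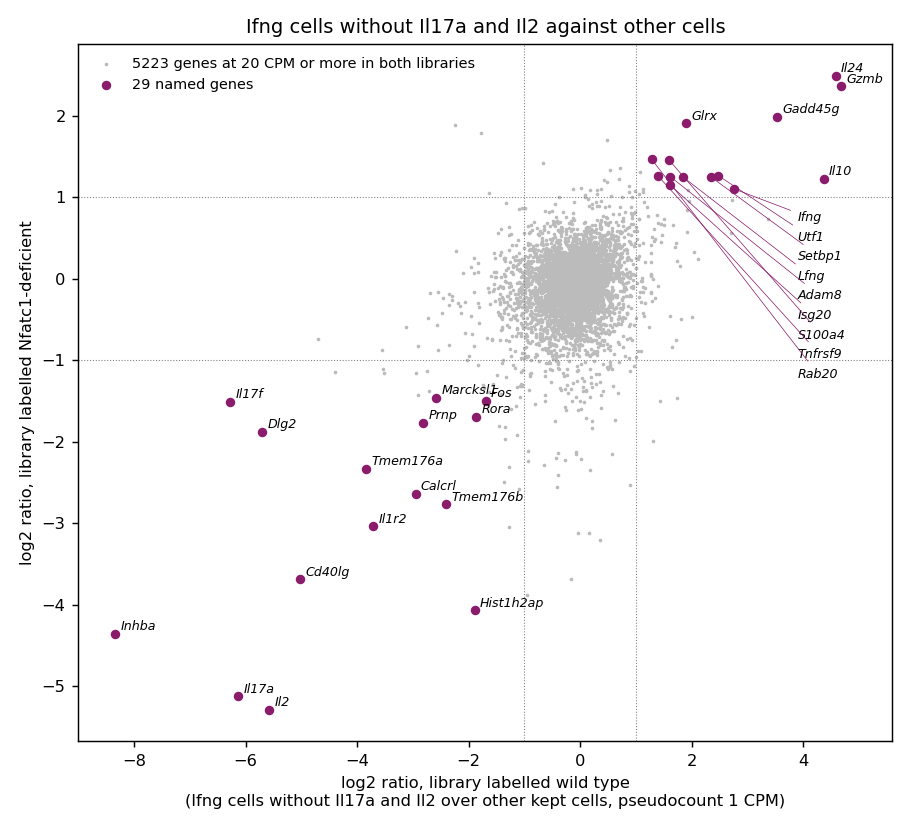
Each point is a gene, with its log2 ratio (CPM plus 1) of the Ifng cells without Il17a and Il2 over the other kept cells in the wild-type-labelled library on the horizontal axis and in the deficient-labelled library on the vertical axis. Grey points are 5223 genes that in each library had 20 CPM or more in these Ifng cells or in the other kept cells. The 29 named genes are coloured, and dotted lines mark 2-fold. Gzmb and Il24 lie farthest toward higher in both, and Il17a and Il2, which the choice used, toward lower.

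Ccl4 and Ccl3 code for chemokines that draw T cells, monocytes and natural killer cells to inflamed tissue. Ccl4 (chr11:83662584-83664683) was held by all 23 wild-type-labelled cells, from 0.924 through a median of 69.9 to 788 per 10000, with 17 at 10 or more. In the 27 deficient-labelled cells it ran from 11.3 through 649 to 984, and all of them were at 10 or more. The ranges overlapped, and the lowest deficient-labelled cells were below the wild-type-labelled median. Its summed level was 15296 CPM against 6260 in the other wild-type-labelled cells (2.44-fold) and 50158 against 35248 CPM in the deficient-labelled library (1.42-fold).

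Ccl3 (chr11:83647844-83649355) split the libraries further. Its median was 0.913 per 10000 in the wild-type-labelled cells, 5 of which held none, and the highest was 152. Of those 23, 6 reached 10 per 10000. The deficient-labelled cells ran from 1.03 through 59.8 to 296, and 24 of 27 reached 10. Summed Ccl3 was 2004 against 802 CPM (2.50-fold) and 10079 against 7326 CPM (1.38-fold), so the ratio to the other cells was smaller in the library where the level was higher.

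As a sum, Xcl1, a chemokine that draws cross-presenting dendritic cells, was 1.36-fold lower than in the other wild-type-labelled cells (4452 against 6066 CPM). It was 2541 CPM without the 1 cell that held 46.4% of its UMIs. By cells the order was the reverse, with a median of 3.82 against 2.95 per 10000. Xcl1 reached 10 in 10 of 23 (43.5%) against 350 of 995 (35.2%) wild-type-labelled cells. The deficient-labelled cells held 36398 against 28791 CPM, 1.26-fold higher. Cell by cell it ran from 0.216 through 3.82 to 344 in the wild-type-labelled and from 2.61 through 419 to 729.5 per 10000 in the deficient-labelled cells. Summed Ccl1, another T cell chemokine, was lower than in the other cells of both libraries, at 2.11 against 64.3 and 269 against 596 CPM. By cells, a Ccl1 UMI was in 1 of 23 against 57 of 995 wild-type-labelled cells. In the deficient-labelled library a UMI was in 5 of 27 against 104 of 682 cells. There, 2 of 27 (7.41%) against 49 of 682 (7.18%) were at 10 or more per 10000, so the share did not differ as the sum did. Tnf, the inflammatory cytokine usually released with interferon gamma, was within 2-fold of the other cells (371 against 324 and 483 against 588 CPM).

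**Figure D3:**
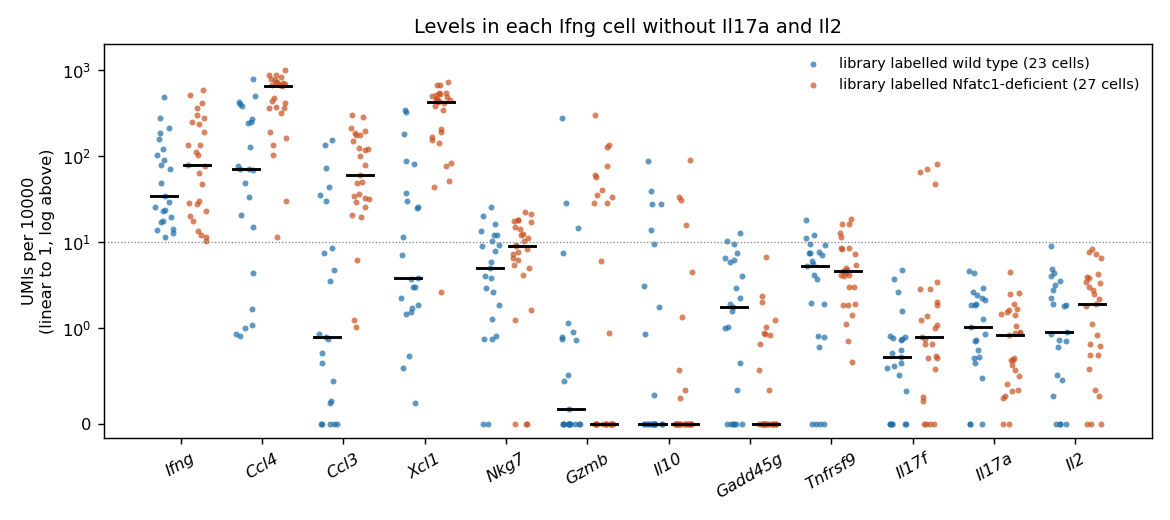
Each point is 1 cell, with UMIs per 10000 on an axis that is linear to 1 and logarithmic above, for 23 wild-type-labelled and 27 deficient-labelled Ifng cells without Il17a and Il2. Black bars are medians and the dotted line marks 10 per 10000. Median Ccl4, Ccl3 and Xcl1 are 69.9, 0.913 and 3.82 in the wild-type-labelled and 649, 59.8 and 419 in the deficient-labelled cells, while Gzmb and Il10 are near 0 in most cells and high in a few.

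Gzmb codes for granzyme B, the protease that cytotoxic cells deliver into targets (chr14:56258838-56262260). Its summed level was 2089 against 80.6 CPM in the wild-type-labelled library, 25.9-fold higher (23.98 to 27.99). A single cell held 80.7% of those UMIs, and without it the level was 429 CPM. Gzmb had a UMI in 12 of the 23 cells, reached 10 per 10000 in 3 and was highest at 274. The deficient-labelled cells held 3320 against 646 CPM, 5.14-fold higher (4.91 to 5.38), or 2325 CPM without the top cell. There, 13 of 27 cells had a UMI and 11 were at 10 or more, up to 302. So Gzmb divided each library into cells with a high level and cells with none or nearly none. At 5000 UMIs per cell Gzmb was seen in 7 of 23 chosen and 41 of 981 other wild-type-labelled cells, and in 12 of 27 and 114 of 671 deficient-labelled cells. These cells are all CD8 T cells, so no cell type lacking Gzmb was there to measure free RNA.

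Nkg7, a granule membrane protein needed for killing, was spread over most cells. It had a UMI in 21 of 23 and 24 of 27 of them, with medians of 4.98 and 8.92 per 10000 against 0.494 and 1.28 in the other cells. Summed levels were 867 against 226 CPM, 3.84-fold higher (3.46 to 4.24), and 1022 against 479 CPM, 2.13-fold higher (1.97 to 2.31). After thinning it was seen in 19 of 23 against 350 of 981 and in 24 of 27 against 327 of 671 cells. Prf1, the pore-forming perforin, was low: 12.7 against 3.63 CPM with UMIs in 2 cells, and 32.7 against 7.02 CPM with UMIs in 5. Srgn, the proteoglycan that packs granules, was slightly below the other cells (2899 against 3714 and 3720 against 4571 CPM). Gzmc went in opposite directions, 21.1 against 74.98 and 172 against 49.2 CPM, and in the deficient-labelled cells it was 79.8 CPM without its top cell.

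The cytokines Il10, which restrains inflammation, and Il24, of the same family, were high in a few cells. Il10 was at 1437 against 68.8 CPM (20.9-fold) in the wild-type-labelled library, with UMIs in 10 cells and 962 CPM without the top one. The deficient-labelled cells held 515 against 219 CPM (2.35-fold), with UMIs in 9 cells, and 363 CPM without the top one, which is under 2-fold. Il10 at or over the limit set for Ifng was about as common in Ifng cells with Il2 and without Il17a. It was in 5 of 23 (21.7%) wild-type-labelled cells against 5 of 25 (20%) with Il2. In the deficient-labelled library it was in 4 of 27 (14.8%) against 36 of 238 (15.1%). Il24 was at 863 against 35.1 CPM, 373 without its top cell, and at 154 against 26.6 CPM. In the deficient-labelled library 1 of the 6 cells with Il24 held 86.5% of its UMIs, and without it the level was 21.5 CPM, below the other cells. Il22 showed the same hazard: all 188 of its wild-type-labelled UMIs were in 1 of 23 cells (397 CPM).

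Gadd45g, a stress gene known to raise interferon gamma in T cells through p38 signalling, was 11.8-fold higher than in the other wild-type-labelled cells (441 against 37.3 CPM, 10.1 to 13.8). It had a UMI in 17 of 23 cells, and its level without the top cell was 412 CPM. In the deficient-labelled cells it was 4.16-fold higher (62.4 against 14.98 CPM, 2.93 to 5.79), with UMIs in 11 of 27, and 41.5 CPM without the top cell. Thinned, it was seen in 11 of 23 against 86 of 981 and in 6 of 27 against 52 of 671 cells. Tnfrsf9, the co-stimulatory receptor 4-1BB, was 2.63-fold and 2.41-fold higher (627 against 239 and 676 against 280 CPM), with UMIs in 19 of 23 and 27 of 27 cells.

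S100a4, a calcium-binding protein of effector cells, was at 143 against 47.0 and 451 against 164 CPM, and at 85.4 and 298 CPM without its top cells, under 2-fold in both. Glrx, a redox enzyme, was at 37.98 against 9.43 and 171 against 44.8 CPM, and at 24.7 and 152 CPM without its top cells. Isg20, an interferon-induced nuclease, was at 31.6 against 9.72 and 25.2 against 10.8 CPM. Levels of Rab20, Utf1, Adam8, Lfng and Setbp1 were also at least 2-fold higher in both, and none of these exceeded 65.4 CPM. Bcl2l11, which codes for the death-promoting protein BIM, and Morrbid, the noncoding RNA that restrains it, passed the size rule in the wild-type-labelled cells and were within 2-fold in the deficient-labelled ones: Bcl2l11 at 50.6 against 6.80 and 77.2 against 39.1 CPM, and Morrbid at 57.0 against 14.1 and 160 against 82.5 CPM.

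The transcription factor genes were less marked. Tbx21, which codes for T-bet, the main type 1 factor, was at 61.2 against 33.3 CPM and 19.3 against 13.6 CPM, within 2-fold in both libraries. Irf8 was at 546 against 334 and 373 against 145 CPM. Hopx, found in type 1 effector cells, was past the size rule in the wild-type-labelled cells and not in the deficient-labelled ones (90.7 against 22.1, and 8.91 against 12.9 CPM), and that difference between libraries was not tested.

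Besides Il17a, which the choice removed, Il17f, Rora, Tmem176a and Tmem176b of the type 17 list were lower in both libraries than in the other cells, many of which hold Il17a, while Il24 of that list was higher. Il17f, which codes for the partner of IL-17A, was 78.2-fold lower in the wild-type-labelled cells (108 against 8414 CPM), and no cell reached 10 per 10000. The deficient-labelled cells were 2.84-fold lower (1418 against 4034 CPM), and there 4 of 27 cells held 47.2, 64.6, 69.9 and 81.1 per 10000 while the rest were under 10. Against Ifng cells with Il2 and likewise without Il17a, Il17f at 10 or more was in 0 of 23 against 10 of 25 wild-type-labelled and in 4 of 27 (14.8%) against 35 of 238 (14.7%) deficient-labelled cells. Rora, a partner of the type 17 factor RORγt, was at 82.3 against 302 and 78.7 against 256 CPM, with UMIs in 5 and 9 cells, and at 40.4 CPM in the wild-type-labelled cells without the top one. Tmem176a and Tmem176b, ion channel genes linked to RORγt, were lower in both libraries, at 10.5 against 164 and 17.8 against 93.5 CPM for the first and 16.9 against 94.3 and 5.94 against 46.2 CPM for the second. Ifng cells with Il2 and without Il17a were low in part as well. Rora UMIs were in 12 of 25 and 132 of 238 of them, against 781 of 995 and 488 of 682 other kept cells. Tmem176a UMIs were in 11 of 25 and 55 of 238 of them, against 3 of 23 and 5 of 27 chosen cells. The other kept cells had Tmem176a UMIs in 723 of 995 and 296 of 682.

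Il1r2, the decoy receptor for interleukin-1, was 14.3-fold and 8.44-fold lower (10.5 against 151 and 31.2 against 263 CPM). Inhba, a subunit of activin, was at 0 in the wild-type-labelled cells against 324 CPM, at least 51.2-fold lower by the limit of 3 counts, and at 5.94 against 141 CPM in the deficient-labelled cells. Cd40lg, the ligand through which T cells help dendritic and B cells, was at 0 against 31.5 and 1.48 against 30.9 CPM. The repair cytokine Areg (0 against 15.9, 1.48 against 74.7 CPM) and the type 17 chemokine Ccl20 (0 against 14.1, 2.97 against 46.9 CPM) were likewise near 0. Bach2, which holds back effector genes, was at 846 against 1701 and 781 against 1408 CPM.

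Within the chosen cells Ccl3 and Ccl4 went with Ifng, and Gzmb did not clearly do so. Spearman's rho with Ifng was 0.73 and 0.68 for Ccl3, 0.57 and 0.60 for Ccl4, and 0.33 and 0.56 for Nkg7 over 23 and 27 cells. It was 0.22 and 0.20 for Xcl1 and −0.04 and 0.28 for Gzmb. For Il17f it was −0.20 and −0.58. Ccl3 and Ccl4 had a rho of 0.85 and 0.82, and each of the 6 and 24 cells with Ccl3 at 10 or more also had Ccl4 at 10 or more. These cells share a library and differ in depth, so the values describe them and carry no p.

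All cells low in Il17a and Il2 were also put in 5 bins of Ifng, of which the 3 highest hold the same cells as these correlations: under 2, 2 to 10, 10 to 50, 50 to 200, and 200 or more per 10000. The bins held 171, 11, 13, 7 and 3 wild-type-labelled cells and 91, 12, 11, 8 and 8 deficient-labelled cells, so every bin above the lowest is thin. Nkg7 was close in both libraries at like Ifng, at 226, 510, 651, 1151 and 1150 CPM against 314, 471, 671, 1221 and 1289 CPM. Ccl3 was not, at 107, 158, 208, 3325 and 8308 CPM against 634, 3805, 3465, 13549 and 15392 CPM. Ccl4 ran from 1436 to 49616 CPM and from 9247 to 66858 CPM between the lowest and highest bins. Xcl1 was at most 9531 CPM in any wild-type-labelled bin and at least 14538 CPM in every deficient-labelled one. Summed Gzmb peaked between 50 and 200 in both, at 5449 and 7015 CPM, but each value includes the top Gzmb cell of its library (274 and 302 per 10000). In the highest bin the sum was 23.5 CPM over 3 cells and 3015 CPM over 8. By the median deficient-labelled cell there was no such peak, at 14.6 per 10000 between 50 and 200 and 17.2 in the highest bin.

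**Figure D4:**
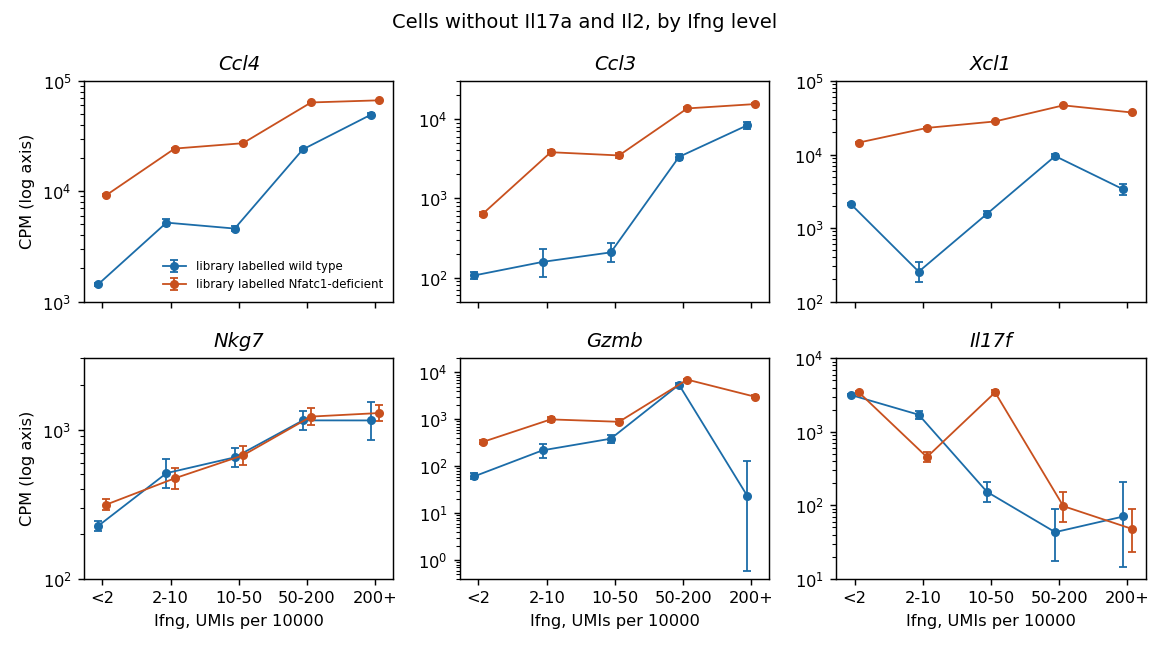
CPM on a log axis (vertical) against Ifng in UMIs per 10000 (horizontal, 5 bins) for cells low in Il17a and Il2; lines are exact Poisson 95% intervals, which leave out the spread between cells. Nkg7 runs together in both libraries, whereas Ccl3, Ccl4 and Xcl1 are higher in the deficient-labelled library in every bin. The 3 highest bins are the Ifng cells without Il17a and Il2.

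The chosen cells were also set against cells of the same kind that had Il2 at 10 or more per 10000. In the wild-type-labelled library 453 of 5523 genes (8.2%) were higher and 281 (5.09%) lower. In the deficient-labelled one 113 of 5402 (2.09%) were higher and 91 (1.68%) lower. The genes higher in both libraries were 17 of 4954 (0.343%) and those lower in both were 19 (0.384%). Cells with Il2 held more of each chemokine as a sum: Ccl3 at 7654 and 13445 CPM, Ccl4 at 33258 and 56607 CPM, and Xcl1 at 19046 and 41374 CPM. By the median cell of the deficient-labelled library Ccl4 was at 597 per 10000 with Il2 and 649 without it. Their Ifng, which the choice of both classes used, was 15403 and 16859 CPM. Gzmb was 1909 CPM in the wild-type-labelled cells with Il2, against 2089 CPM without Il2 (429 CPM without the top cell), and 1300 CPM in the deficient-labelled ones, 2.55-fold below those without Il2 (2.44 to 2.68). Nkg7 stood close to that of cells with Il2 (996 and 789 CPM).

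Gadd45g and Tnfrsf9 were higher in cells without Il2 than in those with it in both libraries, and Il24 in the wild-type-labelled one. Gadd45g was 29.5-fold higher (15.2 to 65.3) than the 14.97 CPM of the wild-type-labelled cells with Il2 and 3.87-fold higher (2.64 to 5.57) than the 16.1 CPM of the deficient-labelled ones. Il24 was 24.9 and 58.5 CPM in cells with Il2. In the deficient-labelled cells without Il2, 1 cell carried most of its UMIs, as given above. Without that cell Il24 was at 21.5 CPM, below the cells with Il2. Tnfrsf9 was at 361 and 360 CPM, 1.74-fold and 1.88-fold below the cells without Il2. Il1r2 was at 283 and 193 CPM in cells with Il2, 26.8-fold and 6.18-fold above the cells without it. Inhba was at 46.6 and 80.0 CPM and Cd40lg at 94.8 and 23.4 CPM in cells with Il2, whereas both were near 0 in the cells without it.

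Between the libraries, 486 of 5722 genes (8.49%) were higher and 468 (8.18%) lower in the deficient-labelled than the wild-type-labelled Ifng cells without Il17a and Il2. With 7 cytokine genes taken out of the totals, which shifted the median of all genes by 0.13 on the log2 scale, these counts were 687 and 385. For the other kept cells 131 of 5581 genes (2.35%) were higher and 114 (2.04%) lower in the deficient-labelled library, with sums over 995 and 682 cells.

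Chemokines were higher in the deficient-labelled cells: Xcl1 8.18-fold, Ccl3 5.03-fold and Ccl4 3.28-fold. The same ratios in the other cells were 4.75, 9.13 and 5.63. Ifng was 1.90-fold higher, against 5.95-fold in the other cells, of which 40.5% and 6.93% were Ifng cells, deficient-labelled first. Gzmb was 1.59-fold higher against 8.01-fold, but without the top cell of each library it was at 2325 against 429 CPM, a log2 ratio of 2.43 in place of 0.67. Nkg7 was 1.18-fold higher (1.04 to 1.33) against 2.12-fold. Glrx was 4.50-fold and S100a4 3.15-fold higher, near the 4.76-fold and 3.49-fold of the other cells. Ccl1 was at 269 against 2.11 CPM with UMIs in 5 cells and 1 cell. Il17f was 13.2-fold higher, in the opposite direction to the other cells, which held 2.09-fold less; the 4 cells named above carry it.

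Several genes were higher in the wild-type-labelled cells. Gadd45g was 7.07-fold higher (5.06 to 10.1), against 2.49-fold in the other cells. Il10 was 2.79-fold higher where the other cells had 3.19-fold less. Batf3, a factor of the AP-1 family, was at 184 against 16.3 CPM with UMIs in 6 cells of each library. Ltb, a lymphotoxin gene, was 5.12-fold (494 against 96.5 CPM) and Ly6a, the surface protein Sca-1, 5.13-fold higher (747 against 146 CPM), with 2.19-fold and 3.18-fold in the other cells. Tbx21 was 3.17-fold higher (1.597 to 6.64), against 2.45-fold.

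Of the naive and memory list 7 of 19 genes were lower and 1 higher in the deficient-labelled than the wild-type-labelled cells, of type 1 receptors 4 and 0 of 15, and of type 1 and effector transcription factors 4 and 0 of 17. The cytotoxic granule list had 1 of 17 lower and 6 higher, and type 1 cytokines and chemokines 3 of 21 lower and 7 higher. Over all genes measured 4.13% were lower and 4.29% higher. Ly6c2, a surface protein of memory and effector CD8 T cells, was at 35.9 CPM with UMIs in 6 cells and at 0 in the deficient-labelled cells, at least 8.05-fold lower. Il12rb2, the signalling chain of the receptor for interleukin-12, was at 31.6 against 1.48 CPM, with UMIs in 6 cells and 1 cell. Hopx was at 90.7 against 8.91 CPM with UMIs in 9 and 6 cells. In the other cells Ly6c2 was 6.19-fold, Il12rb2 1.92-fold and Hopx 1.71-fold higher in the wild-type-labelled library, the same direction.

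Most of the 10 largest ratios in each direction between the libraries were of genes at 0 on one side. In the deficient-labelled cells, beside Ccl1 and Il17f given above, these were Penk (156 CPM in 4 cells, 80% of it in 1), Sorcs1 (66.8 CPM), Lrrk2 (52.0 CPM), Car2 (44.5 CPM in 6 cells), Il1a and Slco4a1 (both 28.2 CPM), March3 (25.2 CPM in 9 cells) and Anxa1 (20.8 CPM in 3 cells). In the wild-type-labelled cells Nck2 (37.98 CPM, 7 cells) and Lcn4 (27.4 CPM, 8 cells) were spread over several cells. Il22 (397 CPM) and Adam2 (40.1 CPM) came from 1 cell each, and Xlr5a (184 against 1.48 CPM), Cenpe, Trp53cor1, Dlgap5 and Zfp60 (29.5 to 52.7 CPM) made up the rest. The zero limits are 6.33 CPM and 4.45 CPM, so genes near 20 CPM were at most a few fold above what a count of 0 allows.

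Of 19 gene lists, the cytotoxic granule list stood highest against the other deficient-labelled cells, at a median log2 ratio of 0.37 with 5 of 17 measured genes at least 2-fold higher and 0 lower. For the wild-type-labelled cells that median was 0.13, with 4 of 16 higher and 1 lower. All genes measured had medians of −0.07 and −0.05, with 0.727% higher and 1.79% lower in the deficient-labelled and 1.89% and 2.78% in the wild-type-labelled cells. The type 17 list was lower, at −1.51 with 7 of 23 lower and 1 higher, and at −0.59 with 8 of 24 lower and 3 higher, or −0.98 without the cell of 65924 UMIs. That list holds Il17a, which the choice used. Type 1 cytokines and chemokines split: 3 of 23 were higher and 8 lower in the deficient-labelled cells, and 5 of 22 higher and 4 lower in the wild-type-labelled ones. Ifng, which the choice required, and Il10 are among the higher in both libraries, and Il2, which it excluded, is among the lower.

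Over all genes measured, 1.89% were higher and 2.78% lower in the wild-type-labelled cells, and 0.727% and 1.79% in the deficient-labelled ones. Early activation genes leaned in opposite directions in the libraries, a difference that was not tested. In the wild-type-labelled cells 7 of 38 were higher and 4 lower (median 0.52), with Ier3 at 395 against 118 CPM, Nr4a1 at 146 against 53.6 and Map3k8 at 78.1 against 18.8. In the deficient-labelled cells 1 was higher and 10 lower (median −0.58), with Ier3 at 68.3 against 189 CPM, Nr4a1 at 23.8 against 69.3 and Tnfrsf4, the receptor OX40, at 57.9 against 285. The naive and memory list had 3 of 19 genes higher and 1 lower in the wild-type-labelled cells, Ly6c2 (35.9 against 4.67 CPM) among the higher, and 0 higher and 3 lower in the deficient-labelled cells. Among NFAT and calcineurin genes 1 of 20 was higher and 1 lower (5% each), and 0 of 21 and 1 (4.76%), a single gene at most each way. No gene of the glycolysis list was 2-fold apart (0 of 27 in each library), nor of the mRNA decay list (0 of 14). Interferon response genes had 2 higher and 2 lower of 24, and 0 of 21. Receptors of type 1 cells, which sense interleukins 12 and 18 and chemokines, had 5 of 15 higher and 0 lower in the wild-type-labelled cells, and 1 of 15 and 0 in the deficient-labelled ones. The type 1 and effector transcription factors had 2 of 17 higher and 0 lower, then 1 of 16 and 3. Inhibitory receptors had 2 of 15 higher and 0 lower in the wild-type-labelled cells, and 0 and 3 of 15 in the deficient-labelled ones. Survival genes, which include Bcl2l11 and Morrbid, had 2 of 22 higher and 0 lower, then 0 and 2 of 23.

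**Figure D5:**
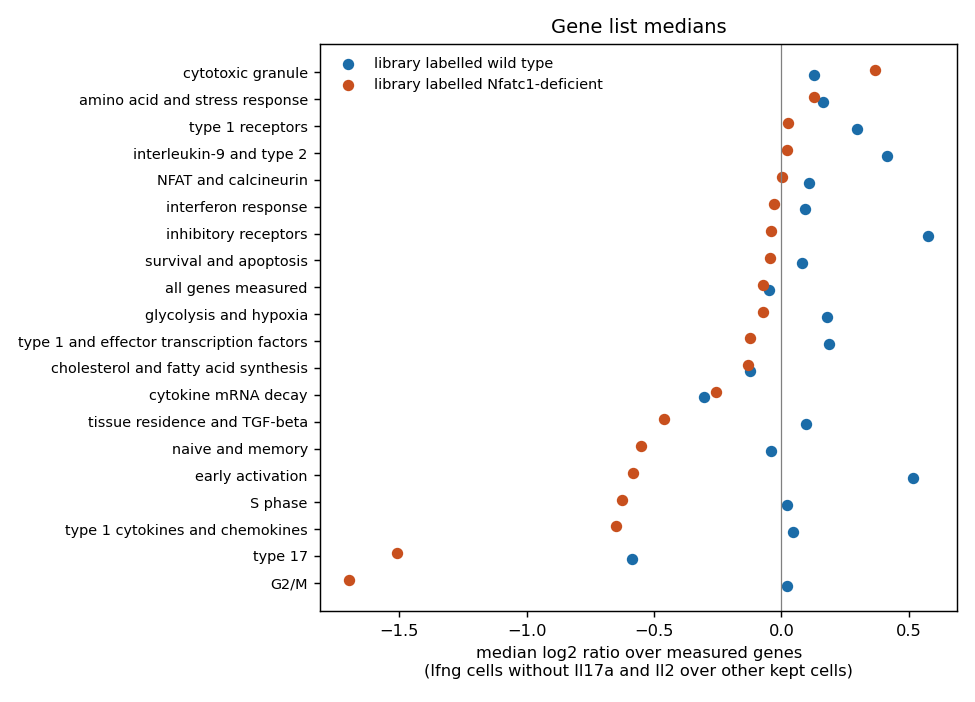
Median log2 ratio (horizontal) of the measured genes of each list, Ifng cells without Il17a and Il2 over other kept cells, in both libraries, with all genes measured as a reference. The type 17 list lies at −0.59 and −1.51 and early activation at 0.52 and −0.58. The wild-type-labelled G2/M value of 0.02 rests on 1 cell.

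Levels of the G2/M list rested on few cells. G2/M calls were 1 of 23 and 0 of 27, against 63 of 981 (6.42%) and 23 of 671 (3.43%) in the other cells. The median of the G2/M list was −1.70 in the deficient-labelled cells. There 9 of 50 genes were at least 2-fold lower and 0 higher, against 1.79% and 0.727% over all genes measured. The wild-type-labelled median was 0.02, but it was −1.22 without the cell of 65924 UMIs, the only 1 of 23 called G2/M. Taking out that cell lowers the list by construction, so the medians do not show that these cells cycled less. Mki67, the proliferation marker, was at 19.0 against 37.7 and 1.48 against 35.6 CPM, in 1 cell of each library. By phase, 15 of 23 and 20 of 27 cells were called G1 (65.2% and 74.1%), against 602 of 981 (61.4%) and 432 of 671 (64.4%) other cells, and the intervals overlapped. Between the libraries the G2/M list was at −2.17, and at −0.42 without that cell.

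The beta V segment of the T-cell receptor was seen in few cells, 5 of 23 and 10 of 27. Of those with a single leading segment, the 4 wild-type-labelled cells held 4 different segments and the 9 deficient-labelled cells held 7. At this depth a shared clone could not be looked for.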

How the data were processed

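Per the file headers, the deposited matrices are raw counts of UMIs by gene and by barcode from Cell Ranger 7.0.0, and the build is mm10 per the submitters' processing notes. The sources used here do not say if intronic reads were counted. Kept barcodes had 500 genes or more and no more than 10% mitochondrial UMIs, and the 12 multiplexing tags stayed out of the totals. UMIs were summed over cells and scaled to CPM. Log2 ratios carry a pseudocount of 1 CPM, which understates the ratios of low genes, and folds do not. Intervals are exact Poisson for CPM, conditional binomial for folds and Clopper-Pearson for shares. A list gene counts as measured if it averages 1 CPM or more.

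The cells, gene lists and rules were chosen with earlier results of these data known. Named genes are the 3 of the choice with Gzmb, Ccl3, Ccl4, Xcl1, Il17f, Tnf, Tbx21 and Nfatc1. Added to these are the 15 genes in each direction with the largest smaller ratio of both libraries, the 10 largest in each direction between libraries, and up to 2 highest and 2 lowest per list at 20 CPM or more. Mitochondrial, ribosomal, unnamed and receptor segment genes were left out of the ranked sets. Markers of other cell types are named as a check of identity, and a few items that the rule names are not reported here. Cells were thinned without replacement to 5000 UMIs, phases were scored in scanpy 1.11.5 over both libraries together, and doublets were called with Scrublet at an expected 5% and kept. Alternatives included TMM scaling in edgeR 4.0.16 (R 4.3.3). Computations ran in pandas 2.3.3, SciPy 1.17.1 and NumPy 2.4.6 under Python 3.11.15, and scripts were tested on simulated data.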

Additional observations from a re-analysis of the deposited data

Results flagged for a closer look

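Of the genes named, 4 lay in opposite directions in the libraries, by at least 2-fold each way, when Ifng cells without Il17a and Il2 were set against the other kept cells. The log2 ratios, wild-type-labelled and then deficient-labelled, were −1.78 and 1.79 for Gzmc, 1.73 and −1.46 for Ier3, 1.42 and −1.50 for Nr4a1, and 1.30 and −1.99 for Fosl2. Gzmc codes for granzyme C, and the others are early response genes of stimulated T cells. The difference between the libraries was not tested for any of them. For Gzmc neither side held: the deficient-labelled level was 79.8 against 49.2 CPM without its top cell, under 2-fold, and the wild-type-labelled ratio was 0.44 in G1 cells.

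Multiplexing tags other than the library's leading one were counted in the kept cells. In the library labelled wild type, where tag CMO303 took 85.8% of tag counts, CMO301 held 4.89%, CMO302 3.08% and CMO304 6.23%. In the library labelled Nfatc1-deficient, where CMO304 took 91.2%, CMO301 held 3.84%, CMO302 2.08% and CMO303 2.82%. Among the Ifng cells without Il17a and Il2, the library's own tag had a median share of 79.6% and 93.7%.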

How the results depend on the processing

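Over 19 planned and 3 added alternatives, 151 of 190 counts of genes and shares of cells stayed near their reported values. Requiring Ifng at 20 or more gave 604 genes lower in the wild-type-labelled library and 87 lower in both. Requiring 50 left 10 and 16 cells (0.982% and 2.26%) and gave 896 and 542 genes lower, with 35 higher and 171 lower in both. Limits of 2 on Il17a and Il2 left 10 and 11 cells (0.982% and 1.55%) and gave 362 higher and 712 lower, 189 and 553 in the deficient-labelled library, 42 and 151 in both, and 833 and 775 between the libraries. A class set after thinning gave 13 higher in both, and a pseudocount of 5 gave 45 higher in the deficient-labelled library. Without the floor of 20 CPM the counts were 1062 and 2127, 670 and 1735, 98 and 572 in both, and 2239 and 2350 between the libraries. With a floor of 50 they were 97 and 118, 27 and 67, 10 and 20, and 183 and 201. G1 cells alone gave 363 and 501. Requiring Il17f under 10 as well, chosen after seeing the data, left 23 and 23 cells and 340 genes lower in the deficient-labelled library. Apart from the floor settings and the pseudocount, where the construction changes the count, the cause was not tested.

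Of the single gene and list values under these alternatives 4242 stayed near their reported values, 592 moved outside their counting interval (for lists, by a set distance in the median), and 15 that were past the size used turned direction (log2 ratios). With Ifng at 50 or more Lfng was −0.70 in the deficient-labelled library, S100a4 −0.086 and the type 17 list 0.0095 between libraries. With limits of 2, Adam8 was −0.11 and Setbp1 −0.23 in the wild-type-labelled library, and Il24 −0.86 and Tnfsf10 −0.0086 in the deficient-labelled one. With the thinned class Il24 was −0.87 in the deficient-labelled library, and the G2/M list was 0.36 between libraries. In G1 cells Gzmc was 0.44 and Il22 −3.98 in the wild-type-labelled library. With Il17f under 10, Lfng was −0.61 in the deficient-labelled library, and Il17f was −0.36 between libraries. Without the top cell of the gene, added after seeing the data, Il22 was −3.19 in the wild-type-labelled library and Il24 −0.30 in the deficient-labelled one.

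No paired analysis was possible because each group has 1 library. Leaving out a library would leave no comparison, so the spread between mice and cultures is unknown. Genes below about 20 CPM rest on fewer than 10 UMIs in the 23 wild-type-labelled cells.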
